A study of Mus musculus with 3 samples.

Results

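Transcripts of 7 genes that carry cytosolic NADH reoxidation were followed in mouse spleen B cells: Mdh1, Got1, Got2, Slc25a11, Slc25a12 and Slc25a13 of the malate-aspartate shuttle, and Gpd2 of the glycerol phosphate shuttle. They were chosen by name, and all 7 are among the 32285 genes of the deposited matrix. The B cells came from 3 mice labelled KO (LDHA-deficient) and 3 labelled WT (LDHA-sufficient), and were sorted on viability, B cell identity and GL7, a surface glycan of germinal centre (GC) B cells. Cells of the 6 mice carried a hashtag antibody per mouse and shared 1 lane of a 5′ droplet assay, which counts unique molecular identifiers (UMIs), each standing for a captured transcript. Which Ldha allele they carried, what drove its deletion, and their strain, age and any immunisation are not known here. The study asked what LDHA does when GC B cells are activated and proliferate.

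Glycolysis reduces NAD+ to NADH in the cytosol and stops unless NADH is oxidised again. Lactate dehydrogenase does this by turning pyruvate into lactate, and LDHA is its subunit in proliferating lymphocytes. The shuttles do it by passing the electrons to mitochondria. In the malate-aspartate shuttle, cytosolic malate dehydrogenase (MDH1) oxidises NADH while making malate, the carrier SLC25A11 exchanges malate for 2-oxoglutarate, mitochondrial MDH2 remakes NADH inside, and the aminotransferases GOT2 (mitochondrial) and GOT1 (cytosolic) return the carbon as aspartate, which leaves through SLC25A12 or SLC25A13. In the glycerol phosphate shuttle, GPD1 or GPD1L oxidises NADH in the cytosol and GPD2, on the inner mitochondrial membrane, hands the electrons to ubiquinone.

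Of the cells with a single hashtag, 1849 passed the filters and 1801 were B cells. They were grouped into GC B-like (171 cells), activated B-like (210), marginal zone B-like (216) and follicular B-like (484) cells, small interferon-responding (57) and plasma cell-like (16) classes, and B cells of 2 clusters left unnamed (560, led by Pxdc1, Tmem108 and Icosl, and 87). Summed UMIs per mouse lay between 1131694 and 2221690. Levels below are on the counts-per-million scale (CPM), a gene's UMIs relative to all UMIs of a mouse and class; since each transcript is counted at its 5′ end, they are not divided by gene length. Ldha averaged 56.5 ± 13.1 CPM in LDHA-deficient and 212 ± 46.3 CPM in LDHA-sufficient B cells (SD, n = 3 each) and the mice did not overlap, in the direction the labels give. GC B-like cells made up 3.3%, 1.66% and 2.1% of B cells in the LDHA-deficient mice, against 18.8%, 22.9% and 5.69% in the LDHA-sufficient mice, a share that the sort on GL7 can also set. The 9, 6 and 5 GC B-like cells of the LDHA-deficient mice gave 8 GC markers, among them Bcl6, S1pr2 and Mef2b, summed levels of 202, 1341 and 513 CPM, against 1515, 1456 and 1152 CPM in the 60, 75 and 16 cells of the LDHA-sufficient mice. The non-GC B cells of the 6 mice held 119 to 156 CPM of them. LDHA-deficient mouse 1 therefore stands apart: its GC B-like cells carried proliferation markers (4056 CPM) with few GC markers and no Gcsam, so results on GC cells are also given without it. LDHA-deficient mouse 3, at 513 CPM, also lay below every LDHA-sufficient mouse. Marginal zone markers summed to 1269, 380 and 816 CPM in GC B-like cells of LDHA-deficient and 293, 523 and 1052 CPM in those of LDHA-sufficient mice. Non-GC B cells held 1295 to 1901 CPM of these. Whether the GC B-like cells of LDHA-deficient mice 1 and 3 are GC cells was not tested. The classes were drawn from the same transcripts as the levels below, with none of the 7 genes among those used for clustering.

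Mdh1 (ENSMUSG00000020321, chromosome 11, 21556787 to 21572367, minus strand, GRCm38) was the most abundant of the 7, with 178, 143 and 162 CPM over all B cells of the LDHA-deficient mice and 203, 231 and 170 CPM in the LDHA-sufficient mice. Got2 (ENSMUSG00000031672, chromosome 8, 95864134 to 95888547, minus strand) had 73.3, 54.4 and 84.8 CPM in LDHA-deficient mice, against 104, 114 and 72.9 CPM in LDHA-sufficient mice. The genotypes overlapped for both genes. Got1, the cytosolic enzyme of the same reaction (ENSMUSG00000025190, chromosome 19, 43499752 to 43524605, minus strand), was rarer, with 15.2 to 21.6 CPM in the LDHA-deficient and 16.6 to 23.4 CPM in the LDHA-sufficient mice.

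Among the carriers, Slc25a11 (ENSMUSG00000014606, chromosome 11, 70644196 to 70647479, minus strand) had 41.7, 43.9 and 56.5 CPM in LDHA-deficient B cells, against 53.6, 60.9 and 55.4 CPM in LDHA-sufficient B cells. Of the alternative aspartate-glutamate carriers, Slc25a12 (ENSMUSG00000027010, chromosome 2, 71271063 to 71367749, minus strand) was the form these B cells held. It had 20.1, 25.8 and 23.9 CPM in LDHA-deficient and 22.1, 24.5 and 24.5 CPM in LDHA-sufficient mice, while Slc25a13 (ENSMUSG00000015112, chromosome 6, 6041218 to 6217173, minus strand) came to 8 UMIs in the LDHA-deficient and 33 in the LDHA-sufficient mice, 41 in all against 234 for Slc25a12. Gpd2 (ENSMUSG00000026827, chromosome 2, 57237635 to 57370719, plus strand) had 35.5, 39.2 and 45.9 CPM in LDHA-deficient and 31.5, 41.1 and 34.4 CPM in LDHA-sufficient mice. Its cytosolic partner was Gpd1l, with 479 UMIs over all B cells; Gpd1 was seen as 1 UMI in 1 LDHA-deficient mouse and none in the other 5. Mdh1 is overlapped on the other strand by Wdpcp and Slc25a11 by Rnf167, and whether the counting used strand is not known here.

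**Figure D1:**
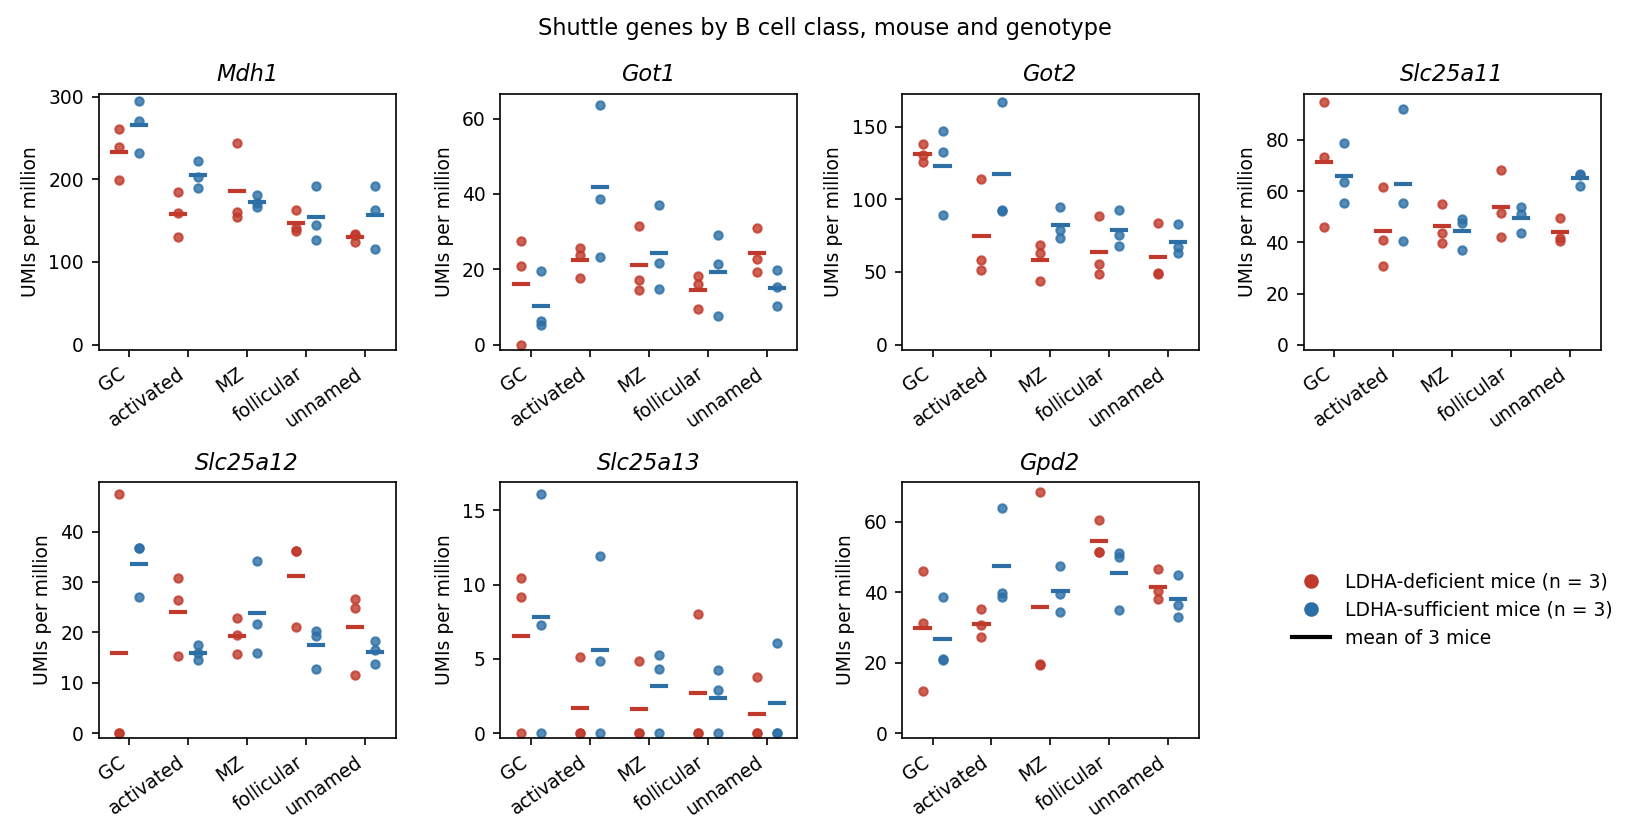
Level of each of the 7 shuttle genes (CPM, each panel with its own linear scale) in 5 B cell classes. Points are mice, LDHA-deficient left of LDHA-sufficient, and bars are means of 3; MZ is marginal zone B-like and unnamed is the cluster of 560 cells. Mdh1 and Got2 are highest in GC B-like cells, Gpd2 in follicular B-like cells, and Slc25a13 is at or below 16.1 everywhere.

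Across the 5 classes with enough cells in every mouse, the members did not share an order. Mdh1 ran from 249 ± 33.5 CPM in GC B-like cells (SD over 6 mice, as for the other levels in this paragraph) through activated (181 ± 32.8), marginal zone (180 ± 33.0) and follicular (151 ± 23.2) B-like cells to 143 ± 28.4 CPM in the unnamed cluster. The GC level lay above the follicular level in every mouse pairing, since the lowest GC value was 199 CPM and the highest follicular value 192 CPM; the 4 classes below GC overlapped each other. Got2 was also highest in GC B-like cells (127 ± 19.9 CPM), then in activated cells (95.8 ± 41.9), and lay between 65.7 and 71.4 CPM on average in the other 3. Slc25a11 had its highest mean in GC B-like cells too (68.7 ± 17.5 CPM, against 45.4 to 54.5 CPM elsewhere), with overlapping mice.

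Got1 and Gpd2 were lowest where Mdh1 and Got2 were highest. Got1 averaged 13.3 ± 10.9 CPM in GC B-like cells and 32.1 ± 16.9 CPM in activated cells, with 17.0 to 22.7 CPM in the other classes. Gpd2 averaged 28.3 ± 12.7 CPM in GC B-like cells, the lowest, and 49.9 ± 8.29 CPM in follicular B-like cells, the highest (SD, n = 6 for both genes). Neighbouring classes overlapped for each of them. Slc25a12 spanned only 18.6 to 24.7 CPM in its 5 class means. The 7 genes together came to 519 ± 49.5 CPM in GC B-like, 426 ± 99.6 CPM in activated, 380 ± 43.8 CPM in marginal zone and 368 ± 33.2 CPM in follicular B-like cells.

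GC B-like cells were compared with the non-GC B cells of the same mice, with the mouse as a block. Mdh1 and Got2 were higher in GC B-like cells and Got1 and Gpd2 lower, each relative to all transcripts. By edgeR's quasi-likelihood test with Benjamini-Hochberg adjustment over 8275 genes, 34.2% of all genes tested passed an adjusted p of 0.05 here (17.0% higher and 17.2% lower), so the 4 of 6 testable members that passed sit on a background of widespread change. The median log2 difference was 0.27 over those 6 and -0.06 over all genes. Slc25a13 was too rare to test. Without LDHA-deficient mouse 1, whose GC cells held few GC markers, all 4 calls remained, with log2 values of 0.54 for Mdh1 (adjusted p = 0.00405), 0.55 for Got2 (0.0194), -1.22 for Got1 (0.016) and -0.77 for Gpd2 (0.0227).

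Mdh1 had 239, 261 and 199 CPM in GC B-like and 172, 137 and 158 CPM in non-GC B cells of the LDHA-deficient mice. In the LDHA-sufficient mice it had 270, 295 and 231 CPM in GC B-like, against 162, 175 and 165 CPM in non-GC B cells. It was higher in GC cells in 6 of 6 mice and the classes did not overlap (log2 0.52 ± 0.14 SE, adjusted p = 0.0035). LDHA-sufficient mice alone gave 0.54 (adjusted p = 0.00771), and without LDHA-sufficient mouse 2 the call was lost (adjusted p = 0.0691).

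Got2 had 138, 131 and 126 CPM in GC B-like and 66.4, 50.5 and 81.1 CPM in non-GC B cells of LDHA-deficient mice. Its values in LDHA-sufficient mice were 147, 132 and 89.4 CPM in GC B-like and 79.0, 100.3 and 73.2 CPM in non-GC B cells. GC cells were higher in 6 of 6 mice, although the classes overlapped between mice (log2 0.61 ± 0.18 SE, adjusted p = 0.00784). The call was lost without LDHA-sufficient mouse 1 (adjusted p = 0.054) and in LDHA-sufficient mice alone (log2 0.44, adjusted p = 0.0778). Mdh2, the mitochondrial malate dehydrogenase that completes the cycle, rose with them, with a log2 of 0.67 ± 0.16 (SE, adjusted p = 0.00121) and 6 of 6 mice higher, and held in all 18 alternatives tried.

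Got1 gave 3, 0 and 2 UMIs in the GC B-like cells of LDHA-deficient mice (27.6, 0 and 20.9 CPM), against 21.6, 16.0 and 21.2 CPM in their non-GC B cells. A count of 0 in LDHA-deficient mouse 2 still allows 3 of the 84247 UMIs of its GC cells, so depth limits that value. In the LDHA-sufficient mice it had 19.6, 6.25 and 5.26 CPM in GC B-like and 26.1, 25.7 and 20.7 CPM in non-GC B cells. GC cells were lower in 5 of 6 mice, LDHA-deficient mouse 1 being the exception (log2 -1.05 ± 0.38 SE, adjusted p = 0.0315). LDHA-sufficient mice alone gave -1.27 (adjusted p = 0.0201). DESeq2 gave an adjusted p of 0.0725, library totals without scaling factors 0.0565, and leaving out LDHA-sufficient mouse 2 or 3 gave 0.234 (log2 -0.73) and 0.0708.

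Gpd2 had 46.0, 11.9 and 31.4 CPM in GC B-like and 35.4, 40.6 and 47.3 CPM in non-GC B cells of LDHA-deficient mice. In LDHA-sufficient mice GC B-like cells had 20.7, 38.5 and 21.1 CPM, against 40.7, 44.6 and 38.7 CPM in non-GC B cells. It was lower in GC cells in 5 of 6 mice, again other than LDHA-deficient mouse 1, which rested on 5 UMIs (log2 -0.66 ± 0.26 SE, adjusted p = 0.0475). This was the least stable of the 4 calls: it remained in 8 of 18 alternatives, with the same direction in all 18, and was lost in LDHA-sufficient mice alone (adjusted p = 0.0507), without LDHA-sufficient mouse 1 (0.259) or 3 (0.0876) and without LDHA-deficient mouse 2 (0.0868) or 3 (0.053).

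The carriers did not pass. Slc25a11 was higher in GC cells in 5 of 6 mice (log2 0.17 ± 0.35 SE, 95% interval -0.55 to 0.88, adjusted p = 0.754). Slc25a12 had 0, 47.5 and 0 CPM in GC B-like cells of LDHA-deficient mice and 36.8, 27.1 and 36.8 CPM in those of LDHA-sufficient mice, against 20.7, 24.6 and 26.1 CPM and 13.0, 22.3 and 22.4 CPM in their non-GC B cells (log2 0.37 ± 0.36 SE, adjusted p = 0.464). All 3 LDHA-sufficient mice were higher in GC cells for Slc25a12. Of the 41 UMIs of Slc25a13, 23 fell in the 171 GC B-like cells, 21 of them in LDHA-sufficient mice 1 and 2.

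**Figure D2:**
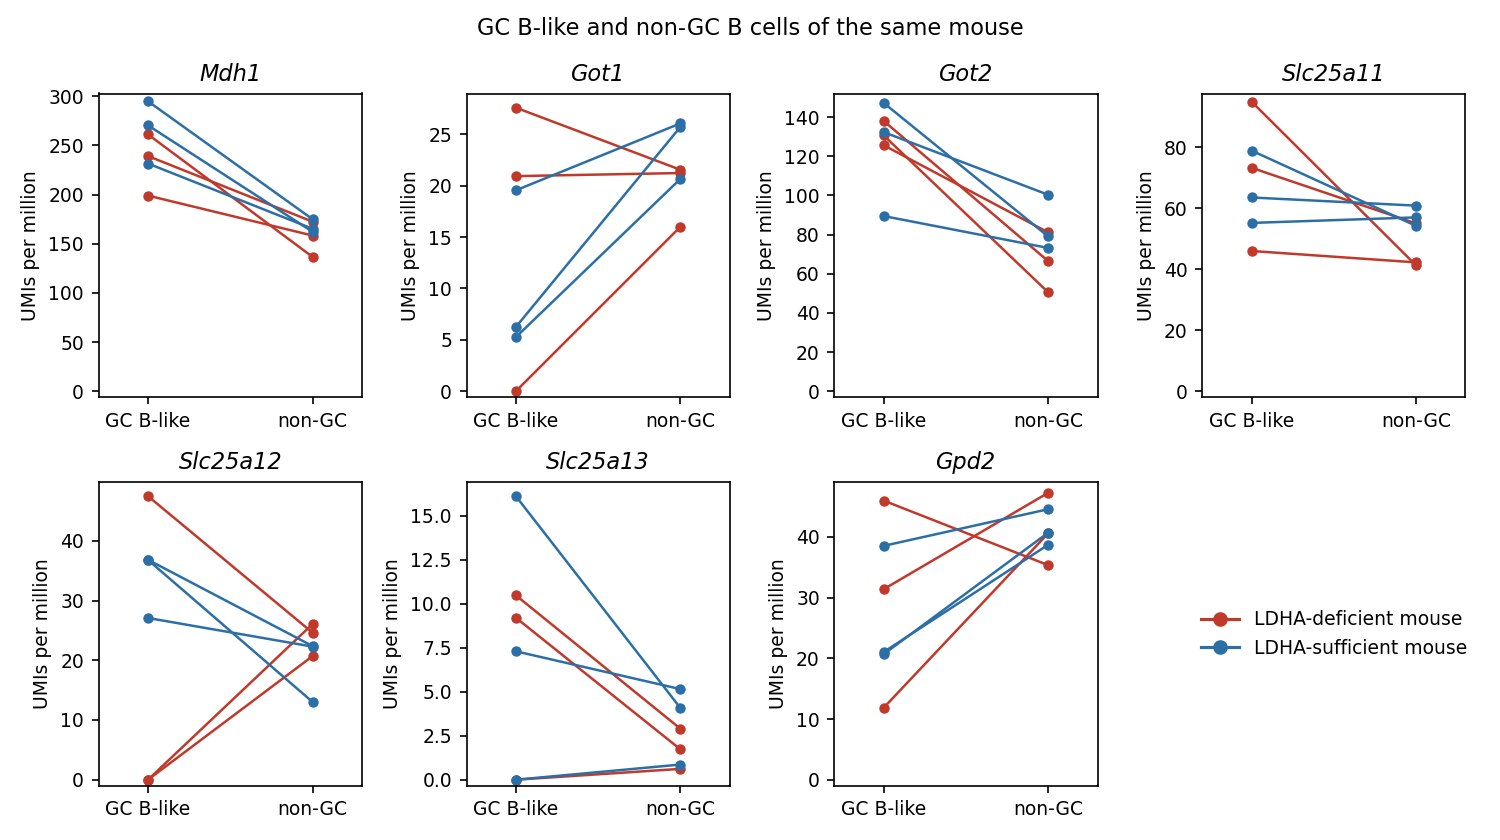
Level of each shuttle gene (CPM, own linear scale per panel) in GC B-like cells, left, and non-GC B cells, right, with a line for each of the 6 mice. All 6 lines fall to the right for Mdh1 and Got2; 5 of 6 rise to the right for Got1 and for Gpd2.

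These differences are in the share of a cell's transcripts, and GC B-like cells held more transcripts: 14100 ± 2680 UMIs per cell against 4570 ± 173 in non-GC B cells (SD, n = 6 mice). Counted per cell, Mdh1 was 3.47 ± 0.509 UMIs in GC B-like and 0.739 ± 0.0688 UMIs in non-GC B cells, and Got2 1.8 ± 0.457 and 0.344 ± 0.0813 UMIs. Gpd2 per cell was 0.394 ± 0.179 UMIs in GC B-like and 0.189 ± 0.0212 UMIs in non-GC B cells, and Got1 0.193 ± 0.166 and 0.1 ± 0.0199 UMIs (SD, n = 6 mice). Per cell, Mdh1 and Got2 were higher in GC B-like cells in 6 of 6 mice. Gpd2 was higher in all mice but LDHA-deficient mouse 2, and Got1 was higher in 3 mice and lower in LDHA-deficient mouse 2 and LDHA-sufficient mice 2 and 3, so the lower relative levels of these genes were not matched by lower counts per cell in every mouse. Proliferation markers, 6 genes, summed to 3592 to 5265 CPM in GC B-like cells and 215 to 395 CPM in non-GC B cells of the 6 mice, and their part in these differences was not tested. A finer clustering divided the GC cells of LDHA-sufficient mice 1 and 2 into a more mitotic part of 30 and 33 cells and a less mitotic part of 30 and 42 cells. Mdh1 had 272 and 357 CPM in the more mitotic part and 268 and 230 CPM in the less mitotic part, all 4 above those mice's non-GC levels. Got2 had 144 and 165 CPM in the more mitotic and 152 and 98.0 CPM in the less mitotic part, the last close to that mouse's non-GC level of 100.3 CPM.

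Within the aminotransferase pair the balance differed by class, a pattern noticed after the values were seen and given with no test. Got1 made up 16.7%, 0% and 14.3% of Got1 and Got2 UMIs in GC B-like cells of LDHA-deficient mice and 11.7%, 4.51% and 5.56% in those of LDHA-sufficient mice. In non-GC B cells the shares were 24.5%, 24.1% and 20.8% in LDHA-deficient and 24.8%, 20.4% and 22.0% in LDHA-sufficient mice, so every mouse was lower in its GC cells. Pooled over mice, the share was 8.55% in GC B-like cells (29 Got1 and 310 Got2 UMIs, exact 95% interval 5.8% to 12.1%, counting error only) and 22.7% in non-GC B cells (19.6% to 26.0%). By class, the pooled share was 25.3% in activated, 25.7% in marginal zone and 19.4% in follicular B-like cells, and 23.8% in the unnamed cluster of 560 cells. The 2 smaller non-GC classes were lower and rest on few UMIs. Interferon-responding cells had 9.68% (3 Got1 and 28 Got2 UMIs, 2.04% to 25.8%), close to the GC share. The unnamed cluster of 87 cells had 17.4% (4.95% to 38.8%).

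**Figure D3:**
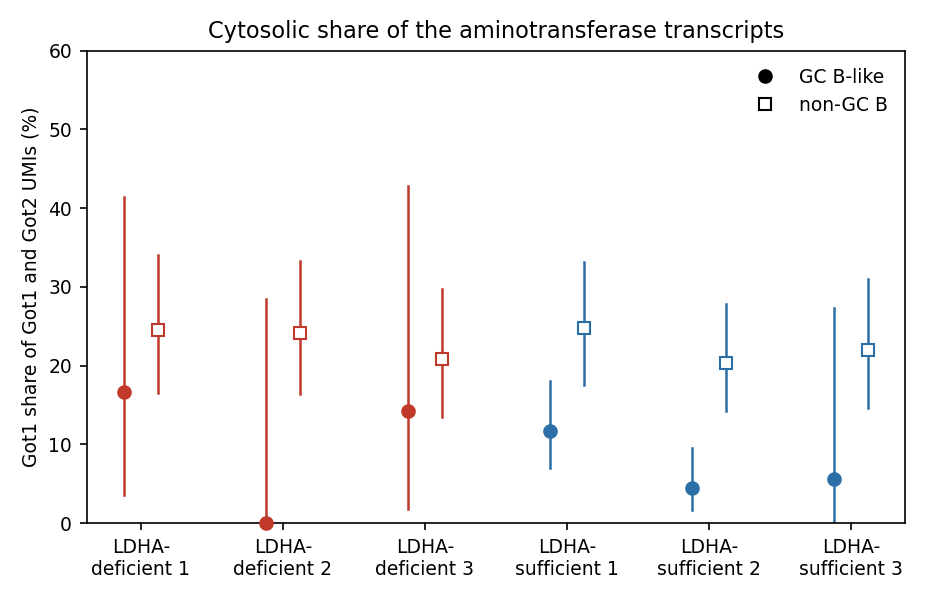
Got1 UMIs as a percentage of Got1 and Got2 UMIs in each mouse, in GC B-like cells (filled circles, left of each pair) and non-GC B cells (open squares), with exact 95% binomial intervals that cover counting error only. The GC share is below the non-GC share in all 6 mice, but the intervals overlap in every mouse except LDHA-sufficient mouse 2.

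The upstream sequence of both pairs of alternative genes is shown because their members differ in level: Got2 over Got1, and Slc25a12 over Slc25a13, on average in each of the 5 classes above. Sequences are the bases before the RefSeq start (GRCm38.p6), 5′ to 3′ on the gene's strand, stopped where an annotated exon of the gene begins; capitals mark the E-box CACGTG, which MYC and related factors bind.
Got1 (chr19:43524606-43524855, minus strand): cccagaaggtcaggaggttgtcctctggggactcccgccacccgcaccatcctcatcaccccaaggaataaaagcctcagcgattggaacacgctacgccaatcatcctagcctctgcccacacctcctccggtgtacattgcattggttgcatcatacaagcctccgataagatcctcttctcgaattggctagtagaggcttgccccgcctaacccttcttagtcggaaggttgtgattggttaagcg
Got2 (chr8:95888548-95888651, minus strand): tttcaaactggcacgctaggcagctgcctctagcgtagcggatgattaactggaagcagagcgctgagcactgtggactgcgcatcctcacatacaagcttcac
Slc25a12 (chr2:71367756-71368005, minus strand): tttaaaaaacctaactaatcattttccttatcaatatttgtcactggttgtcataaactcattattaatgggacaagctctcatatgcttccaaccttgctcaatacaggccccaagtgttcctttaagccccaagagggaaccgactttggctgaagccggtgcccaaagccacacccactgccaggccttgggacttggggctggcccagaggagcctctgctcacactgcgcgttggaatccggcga
Slc25a13 (chr6:6217174-6217423, minus strand): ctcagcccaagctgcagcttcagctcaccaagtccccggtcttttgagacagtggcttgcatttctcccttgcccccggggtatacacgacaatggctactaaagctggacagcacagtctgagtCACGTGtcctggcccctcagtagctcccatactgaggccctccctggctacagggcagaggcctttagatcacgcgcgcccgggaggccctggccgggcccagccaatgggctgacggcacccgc

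All 7 members had a promoter in the table, and the 250 bases before each start were searched on both strands for 4 motifs. CACGTG was found for Slc25a13 alone among the members, its first base 125 before the start, and also for Gpd1l; 6.02% of 32851 promoters hold it. The NRF1 motif (0.782% of promoters), CCGGAAGT (GABPA, 2.88%) and TCAAGGTCA (ERR, 0.387%) were found in no member. The Got2 window held 19 CpG in 250 bases, of which only 104 are printed above, against 11 for Got1, 6 for Slc25a12 and 11 for Slc25a13. Slc25a11 also had 19, and the median over all promoters was 6. A match is a run of letters, and binding was not measured.

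Activated B-like cells, which carried Myc, Egr3, Nr4a1 and Cd83, were compared with follicular B-like cells of the same mice. The follicular B-like cluster was itself enriched for Cd69 and Ccr7 of the activation markers, so it is not shown to be resting. Got2 had 51.2, 58.1 and 114 CPM in activated and 48.3, 55.3 and 88.6 CPM in follicular B-like cells of LDHA-deficient mice. In LDHA-sufficient mice it had 92.1, 167 and 92.9 CPM in activated and 68.2, 92.4 and 75.5 CPM in follicular B-like cells. It was higher in 6 of 6 mice, by 0.46 ± 0.20 on the log2 scale (SE, adjusted p = 0.0449). Of 4092 genes tested, 49.0% passed (25.5% higher and 23.6% lower), and 1 of 4 testable members. The Got2 call sat at the threshold and remained in 8 of 18 alternatives, with log2 values between 0.34 and 0.67. It was lost without any of the LDHA-sufficient mice 1, 2 and 3 (adjusted p of 0.0928, 0.208 and 0.0618) and without LDHA-deficient mouse 3 (0.0704).

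Mdh1 did not pass in activated cells (log2 0.33 ± 0.15 SE, adjusted p = 0.0719, higher in 4 of 6 mice), nor did Slc25a11 (log2 0.10 ± 0.25 SE) or Gpd2 (log2 -0.31 ± 0.27 SE, lower in 5 of 6 mice). Mdh2 rose by 0.73 ± 0.17 (SE, adjusted p = 0.000331) and Gpd1l, the cytosolic glycerol 3-phosphate dehydrogenase, fell by 0.58 on the log2 scale (SE 0.25, adjusted p = 0.0436, lower in 6 of 6 mice). The Gpd1l call remained in 6 of 18 alternatives. Ldha itself had a log2 of 1.25 ± 0.25 in the fit over all 6 mice (SE, adjusted p = 0.000419), but was higher in 4 and lower in 2. In LDHA-sufficient mice it had 320, 377 and 366 CPM in activated and 98.0, 119 and 90.0 CPM in follicular B-like cells. In LDHA-deficient mice it had 61.4, 41.0 and 87.8 CPM in activated and 66.4, 43.8 and 68.45 CPM in follicular B-like cells. The fit without the mouse block gave an adjusted p of 0.0602 for Ldha.

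Between marginal zone and follicular B-like cells, Mdh1 passed and the other 3 testable members did not. It had 244, 160 and 154 CPM in marginal zone and 163, 137 and 141 CPM in follicular B-like cells of LDHA-deficient mice, and 172, 181 and 166 CPM in marginal zone, against 145, 127 and 192 CPM in follicular B-like cells of LDHA-sufficient mice. It was higher in 5 of 6 mice (log2 0.48 ± 0.14 SE, adjusted p = 0.00664), and 27.5% of 3878 genes passed in this comparison (15.2% higher and 12.2% lower). Library totals without scaling factors gave a smaller log2 of 0.23 (adjusted p = 0.189), while DESeq2 gave a like value with a larger error (0.46 ± 0.22 SE, adjusted p = 0.175). Without LDHA-deficient mouse 1 the adjusted p was 0.0916, and in LDHA-sufficient mice alone 0.219. Gpd1l fell by 0.76 (SE 0.27, adjusted p = 0.0237, lower in 6 of 6 mice), and the call was lost in LDHA-sufficient mice alone (log2 -0.43, adjusted p = 0.446), without LDHA-deficient mouse 1 (0.19) or 3 (0.0607), with DESeq2 (0.203), with no cell filter (0.154) and with the hashtag ratio rule (0.0614). Gpd1l had 11.8 and 5.7 CPM in marginal zone B-like cells of LDHA-deficient mice 1 and 3, against 38.9 to 50.1 CPM in those of the other 4 mice.

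LDHA-deficient and LDHA-sufficient mice were then compared within each class. No member passed in any class by edgeR or by DESeq2; an unadjusted edgeR p under 0.05 was reached by 2 members over all B cells, 2 outside the GC, 1 in activated and 0 in GC B-like cells. Over all B cells 1.2% of 9182 genes passed (0.991% lower and 0.207% higher), outside the GC 0.0465% of 8603, in activated B-like cells 0.0545% of 3668 and in GC B-like cells 0.0% of 2775, where 212 genes had an unadjusted p under 0.05 and DESeq2 called 10. Ldha passed in the first 3 classes; in GC B-like cells its log2 of -2.14 had an adjusted p of 0.212.

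Over all B cells, 4 of 6 testable members were lower and 2 higher in LDHA-deficient mice, with a median log2 of -0.15 against 0.02 over all genes. Got2 averaged 70.8 ± 15.3 CPM in LDHA-deficient and 97.1 ± 21.5 CPM in LDHA-sufficient mice (SD, n = 3 each; log2 -0.47 ± 0.17 SE, adjusted p = 0.184), and Mdh1 161 ± 17.7 CPM and 201 ± 30.5 CPM (log2 -0.31 ± 0.12 SE, adjusted p = 0.21). Both crossed the threshold without LDHA-sufficient mouse 3, with an adjusted p of 0.00176 for Got2 and 0.0106 for Mdh1, and Got2 also with no filter on low counts (0.0204). The share of GC cells moves with genotype in these sums, and LDHA-sufficient mouse 3, with 5.69% GC cells, lies nearer the LDHA-deficient mice than the other 2 do. The pooled sums alone do not separate fewer cells of a class from less RNA per cell. Counted per GC B-like cell, Mdh1 was 2.89, 3.67 and 3.8 UMIs in LDHA-deficient and 3.92, 3.77 and 2.75 UMIs in LDHA-sufficient mice. Got2 was 1.67, 1.83 and 2.4 UMIs per GC B-like cell in LDHA-deficient and 2.13, 1.69 and 1.06 UMIs in LDHA-sufficient mice. The genotypes overlapped for both genes. How much cell number and RNA per cell each add to the pooled difference was not tested. Summed red cell markers varied between mice, at 33.2, 33.4 and 157 CPM in LDHA-deficient and 591, 24.0 and 3113 CPM in LDHA-sufficient B cells. The genotypes overlapped for them, with the lowest value in LDHA-sufficient mouse 2. Plasma cell markers summed to 872, 414 and 753 CPM in LDHA-deficient and 2526, 1457 and 3109 CPM in LDHA-sufficient B cells, and proliferation markers to 566, 405 and 806 CPM in LDHA-deficient and 1875, 1765 and 768 CPM in LDHA-sufficient B cells. Their part in the result was not tested.

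Outside the GC, Mdh1 had 172, 137 and 158 CPM in LDHA-deficient and 162, 175 and 165 CPM in LDHA-sufficient mice (log2 -0.13 ± 0.11 SE, 95% interval -0.34 to 0.09, adjusted p = 0.976). That interval includes the log2 of -0.31 over all B cells. Whether the genotype difference itself differs between these groupings was not tested. Got2 had 66.4, 50.5 and 81.1 CPM in LDHA-deficient and 79.0, 100.3 and 73.2 CPM in LDHA-sufficient mice, and the mice overlapped (log2 -0.40 ± 0.15 SE, unadjusted p = 0.00938, adjusted p = 0.805). Slc25a11 was lower by a similar amount (log2 -0.35 ± 0.16 SE, adjusted p = 0.945). Got1 had a log2 of -0.34 ± 0.25, Slc25a12 of 0.30 ± 0.26 and Gpd2 of -0.03 ± 0.18 (SE), the last with a 95% interval of -0.40 to 0.34. Of the 7, none had genotypes that did not overlap over all B cells, where 19.2% of genes did, or outside the GC, where 10.4% of genes did. Red cell markers outside the GC summed to 34.5, 35.1 and 171 CPM in LDHA-deficient and 1049, 21.4 and 3796 CPM in LDHA-sufficient mice, and their part was not tested.

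In activated B-like cells, 3 members could be tested and none passed; all had negative log2 values, with a median of -0.49, while 50.5% of all genes tested had positive ones. Mdh1 had 159, 130 and 184 CPM in LDHA-deficient, against 189, 222 and 203 CPM in LDHA-sufficient activated cells, with no overlap (log2 -0.38 ± 0.23 SE, adjusted p = 0.984; 10.5% of genes had genotypes that did not overlap in this class). Got2 had a log2 of -0.68 ± 0.31 (SE, unadjusted p = 0.0325, adjusted p = 0.868), and Slc25a11 of -0.49 ± 0.38 (adjusted p = 0.987). Gpd2, too rare to test here, had 30.7, 27.3 and 35.1 CPM in LDHA-deficient and 38.8, 39.7 and 63.9 CPM in LDHA-sufficient cells, from 6 to 11 UMIs per mouse, also without overlap. Other markers moved with genotype in these cells: activation markers summed to 1925, 2675 and 1998 CPM in LDHA-deficient and 1430, 1372 and 1834 CPM in LDHA-sufficient mice, without overlap, and proliferation markers to 307.1, 260 and 975 CPM in LDHA-deficient and 848, 682 and 859 CPM in LDHA-sufficient mice. Interferon response markers, at 20.5 to 30.7 CPM in LDHA-deficient and 58.1 to 79.3 CPM in LDHA-sufficient mice, and B lineage markers, at 4478 to 5523 CPM in LDHA-deficient and 5705 to 5834 CPM in LDHA-sufficient mice, did not overlap either. Red cell markers reached 10760 CPM in LDHA-sufficient mouse 3, against at most 30.7 CPM in the other 5 mice. Their part in these values was not tested. In follicular B-like cells Gpd2 lay narrowly higher in every LDHA-deficient mouse, with 51.3, 51.5 and 60.4 CPM in LDHA-deficient and 51.1, 50.1 and 34.8 CPM in LDHA-sufficient cells. Slc25a12 likewise lay higher in every LDHA-deficient mouse there, at 21.1, 36.2 and 36.2 CPM against 12.8, 19.3 and 20.3 CPM. Its values rest on 3 to 19 UMIs per mouse, too few to enter the set of genes counted next. Among all genes of follicular B-like cells with 10 UMIs in 3 mice, 9.46% had genotypes that did not overlap. By the same count Got2 lay lower in every LDHA-deficient mouse in marginal zone B-like cells, at 63.0, 43.7 and 68.5 CPM in LDHA-deficient and 73.4 to 94.99 CPM in LDHA-sufficient mice (11.2% of genes did not overlap there). Slc25a11 did so in the unnamed cluster of 560 cells, at 41.8, 40.7 and 49.5 CPM in LDHA-deficient and 62.2, 66.9 and 66.2 CPM in LDHA-sufficient mice (10.2% of genes). These classes were not fitted between genotypes, and 3 mice against 3 cannot go below an exact permutation p of 0.1.

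In GC B-like cells, Mdh1 had 239, 261 and 199 CPM in LDHA-deficient and 270, 295 and 231 CPM in LDHA-sufficient mice (log2 -0.12 ± 0.23 SE, 95% interval -0.60 to 0.37, adjusted p = 0.932). For Got2 the log2 was 0.12 ± 0.28 (95% interval -0.47 to 0.71), and for Slc25a11 0.25 ± 0.40 (-0.60 to 1.10). The remaining members, with 2 to 9 UMIs in all LDHA-deficient GC cells, could not be tested. None of the 7 had genotypes that did not overlap in GC B-like cells, where 14.1% of genes did. Without LDHA-deficient mouse 1 the log2 was -0.14 for Mdh1, 0.08 for Got2 and 0.51 for Slc25a11, none past the threshold. The effect of LDHA in GC B-like minus that in non-GC B cells passed for 0.109% of 9139 genes (0.0547% higher and 0.0547% lower) and for none of the 6 testable members. Slc25a12 had the largest of the 6 differences (log2 -1.63 ± 0.83 SE, unadjusted p = 0.0564, adjusted p = 0.732), and rests on 2 LDHA-deficient mice with no UMI in GC cells; without LDHA-deficient mouse 3 it was -0.96, and without mouse 2 no UMI is left on that side, so the fit gives no usable value.

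**Figure D4:**
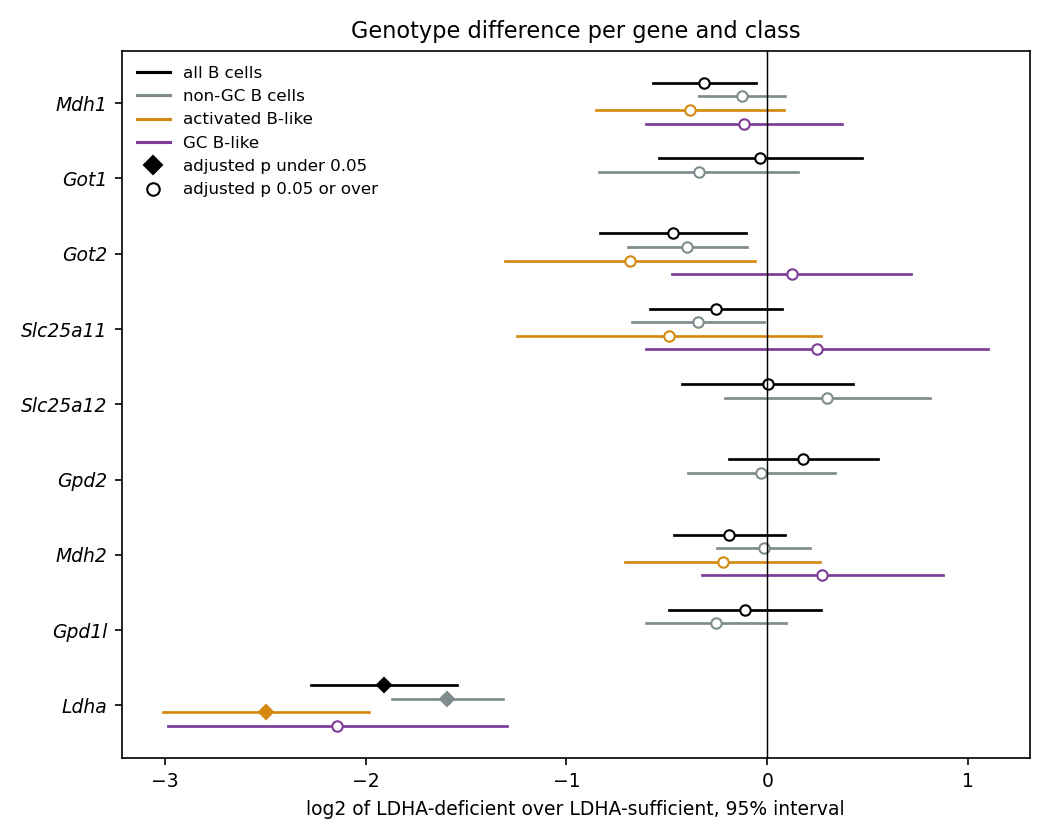
Log2 of LDHA-deficient over LDHA-sufficient for the 6 testable shuttle genes, their partners Mdh2 and Gpd1l, and Ldha, in 4 groupings of B cells; lines are 95% intervals and filled diamonds have an adjusted p under 0.05. The filled symbols belong to Ldha (3 of its 4 values), and the shuttle genes lie between -0.68 and 0.30.

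Genes that feed or flank the shuttles were followed as lists. None passed between genotypes in any class, among 8 tested genes of glutamate and aspartate metabolism, 6 other ubiquinone-linked dehydrogenases, 9 genes of NAD(P)(H) handling and 23 other mitochondrial carriers over all B cells. The smallest p in each list over all B cells belonged to Ass1 (argininosuccinate synthase, which consumes aspartate; log2 -0.45 ± 0.24 SE, adjusted p = 0.366), Sdhb (a succinate dehydrogenase subunit; -0.49 ± 0.17, 0.177), Idh1 (cytosolic isocitrate dehydrogenase; 0.52 ± 0.39, 0.532) and Slc25a10 (the dicarboxylate carrier; -1.23 ± 0.41, 0.152). Ass1 had 18.5, 11.7 and 22.1 CPM in LDHA-deficient and 23.9, 23.1 and 23.1 CPM in LDHA-sufficient B cells. Outside the GC its values were 14.7, 12.3 and 15.4 CPM in LDHA-deficient and 27.7, 28.3 and 27.5 CPM in LDHA-sufficient mice, with no overlap (log2 -1.01 ± 0.26 SE, adjusted p = 0.127). There 10.4% of genes did not overlap, and Ass1 was picked over all B cells, which include these cells. In GC B-like cells Ass1 had 64.4, 0 and 94.2 CPM in LDHA-deficient and 18.4, 16.7 and 5.26 CPM in LDHA-sufficient mice, with overlap. The LDHA effect inside minus outside the GC had a log2 of 2.66 ± 0.69 (SE, edgeR adjusted p = 0.178).

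Between states these lists moved in both directions. In GC B-like cells, 3 of 7 tested genes of glutamate and aspartate metabolism rose and 1 fell. Those that rose were Adsl, of purine synthesis (log2 0.65), Cad, which uses aspartate for pyrimidines (0.77), and the glutamine transporter Slc1a5 (0.56). Of 20 tested carriers, 5 rose and 3 fell: the adenine nucleotide carriers Slc25a4 and Slc25a5 rose (0.86 and 0.81), as did Slc25a40 and Slc25a10 (1.54) among others, and Slc25a36, Slc25a37 and Slc25a53 fell (-1.37, -1.62 and -1.11). Sdhb rose alone of 5 tested ubiquinone-linked dehydrogenases (log2 1.03), and 2 of 7 genes of NAD(P)(H) handling rose, Nadk2 (0.95) and the monocarboxylate carrier Slc16a1 (1.18). In activated B-like cells Adsl (1.26), Adss (0.88), Slc1a5 (0.46), Sdhd (0.68) and Nampt, which makes an NAD+ precursor (1.09), rose, with 4 of 8 carriers higher and 2 lower. The adjusted p-values of these genes lay under 0.05 in edgeR's quasi-likelihood test, against the backgrounds of 34.2% and 49.0% given above.

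Over 32 sums of a mouse and class, the genes whose log2 CPM most resembled Mdh1 were Gmnn (Pearson r = 0.78), Bub1b (0.76) and Cbx5 (0.76), and those most like Got2 were Mcm5 (0.77), Ndufb8 (0.76) and Slc43a3 (0.75). Gmnn, Bub1b and Mcm5 are cell cycle genes, and the sums share cells of the same mice and depth differences between classes. Slc25a11 was most like Kif4 (0.62), Calm2 (0.61) and Pafah1b3 (0.60). The closest genes to Got1 (Vav3, Pdk1, Cebpzos; r of 0.79 to 0.82), Slc25a12 (Shfl, Prpsap2, Orai1; 0.86 to 0.92) and Gpd2 (Gramd1a, Tnip1, Zmynd8; 0.85 to 0.88) are less firmly placed, because 11, 8 and 4 of the 32 sums held 3 or fewer UMIs of these members. Between members, Mdh1 and Got2 had an r of 0.68 and Mdh1 and Mdh2 of 0.66, while Got1 and Got2 had -0.10.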

How the data were processed

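Droplet gene counts and hashtag counts of 6 mice (3 per genotype) were used. The authors deposited UMI counts per gene and barcode; the submitters' processing notes list mm10 (GRCm38), Cell Ranger 6.0.0 and Seurat 4.2.1, while the matrix header names Cell Ranger 6.0.2. The labels call the hashtag cells HSPCs; they were treated as sorted B cells. The heavy chain library was not used here. Of 2836 barcodes 2831 also had hashtag counts. HTODemux (Seurat 5.3.0, quantile 0.99) gave 1856 single, 820 multiple and 155 negative barcodes, of the single ones about 167.2 would be same-mouse doublets, and Scrublet called 0. Cells with 500 genes, 1000 UMIs and under 10% mitochondrial UMIs were kept.

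Leiden clusters (scanpy 1.11.5, resolution 0.8, 20 neighbours, 30 components, 1997 variable genes, none of them a member) were named from 3 or more fixed markers at 1.5-fold; 48 myeloid and plasmacytoid dendritic cells were left out. UMIs summed per mouse and class (20 cells per mouse, 5 in the GC) were tested with edgeR 4.0.16 (TMM, filterByExpr), adjusted over all genes; SEs are those implied by the test's p. DESeq2 1.42.0, other scalings, filters, clusterings and leaving out each mouse were alternatives. Fits were tested on simulated data. Named are the 7 members, their partners, the 4 smallest p over all B cells in each list (the first given in the text) with those past the threshold between states, and the 3 genes most alike; list genes past the threshold were added after their values were seen, and some genes are not reported here by name. Members and lists were chosen with earlier results of these data known. Cells of a mouse are not replicates; the mice are.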

Additional observations from a re-analysis of the deposited data

Results flagged for a closer look

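Log2 ratios between classes were examined in the 6 mice for 18 combinations of gene and class pair, and 3 mice stood apart from the other 5; chance sets apart about 1 in 20 such groups. In activated over follicular B-like cells, LDHA-sufficient mouse 3 was high for Gpd2, with a log2 ratio of 0.87, against -0.91 to -0.34 in the other 5 mice; it rests on 11 and 12 UMIs. In the same pair of classes LDHA-sufficient mouse 1 was high for Slc25a12, at 0.19, against -0.46 to -0.22 in the others, from 3 UMIs in each class. LDHA-sufficient mouse 2 was high for Mdh2 in marginal zone over follicular B-like cells, at 1.17, against -0.37 to 0.15 in the others.

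Slc25a12 moved in opposite directions in the genotypes between marginal zone and follicular B-like cells: the log2 ratio was -0.42, -0.90 and -0.67 in LDHA-deficient and 0.31, 0.16 and 0.75 in LDHA-sufficient mice, a mean difference of -1.07. This difference was not tested, and each value rests on 3 to 19 UMIs per class.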

How the results depend on the processing

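The main limits are depth and number: GC B-like cells of LDHA-deficient mice gave 2 to 9 UMIs of Got1, Slc25a12, Slc25a13 and Gpd2 in all, and 3 mice per genotype carry the spread. No paired analysis was possible between genotypes because hashtag numbers pair no mice; comparisons of states held the mouse as a block, and without that replicate block no call of a member changed. Of 938 values of single genes recomputed under the alternatives, none that passed in either setting changed sign; 57 lost and 11 gained the threshold, and 39 changed sign without passing in either. Marginal zone cells could not be separated at resolution 0.4, so that value was not obtained. The causes of the changes below were not tested.

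Between genotypes, genes past the threshold over all B cells numbered 110, but 184 with DESeq2, 63 with library totals without scaling factors (added after seeing the data), 662 with no filter on low counts, 69 without the highest Scrublet scores and 50 with equal cells per mouse. Leaving out single mice gave 4 to 1401, and 0 to 3 members lower (3 without LDHA-sufficient mouse 3: Mdh1, Got2 and Slc25a13); no filter gave 1 member lower. Outside the GC the 4 genes became 1 with DESeq2, 23 with no filter and 6 to 31 without single mice. In activated B-like cells the 2 genes became 4 with DESeq2, 5 with RLE size factors, 21 with no filter, 6 with a stricter filter, 1 at resolution 1.2, 1 with the hashtag ratio rule, 5 with no cell filter, 1 with equal cells and 5 to 16 without single mice. In GC B-like cells 0 became 10 with DESeq2, 51 with no filter, 1 with the hashtag ratio rule and 0 to 5 without single mice. The LDHA effect inside minus outside the GC changed from 10 genes to 37 with no filter and 2 to 75 without single mice, with 0 members throughout.

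In GC B-like against non-GC B cells, members higher were 2, and 1 in LDHA-sufficient mice only; members lower were 2, but 0 with DESeq2 and with library totals, and 1 with no filter, at resolution 0.4, with the hashtag ratio rule and in LDHA-sufficient mice only. Leaving out single mice gave 1 to 2 higher and 0 to 2 lower. In activated against follicular B-like cells 1 member was higher, but 0 with DESeq2, RLE size factors, library totals, no filter, the stricter filter and LDHA-sufficient mice only, 2 at resolution 0.4 and 1.2, and 0 to 1 without single mice; 2007 genes passed, 1283 with DESeq2 and 1334 in LDHA-sufficient mice only. In marginal zone against follicular B-like cells 1 member was higher, but 0 with DESeq2, library totals and LDHA-sufficient mice only, and 0 to 1 without single mice; 1065 genes passed, 484 with DESeq2 and 705 in LDHA-sufficient mice only.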
